A study of Mus musculus with 9 samples.

Results

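The nuclear genes for subunits of the mitochondrial respiratory chain and ATP synthase were followed across 9 mouse heart libraries. Members were chosen by gene name: symbols beginning with Nduf and a subunit letter, the 4 Sdh subunits, Uqcr symbols and Cyc1, Cox4 to Cox8 subunits, and Atp5 symbols. Only genes listed as protein-coding were kept and pseudogenes were left out, so that 82 of the 29237 genes in the table were members. They comprise 37 genes of complex I, 4 of complex II, 9 of complex III, 15 of complex IV and 17 of complex V. Ndufa4, now placed in complex IV, and its relative Ndufa4l2 are counted by name with complex I. The name pattern does not reach Cox4i1, Cox4i2, Ndufab1 and Cycs, whose values are given apart.

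The respiratory chain sits in the inner mitochondrial membrane. Complex I (NADH dehydrogenase) and complex II (succinate dehydrogenase) pass electrons to ubiquinone, complex III passes them on to cytochrome c, and complex IV (cytochrome c oxidase) hands them to oxygen. Complexes I, III and IV pump protons, and complex V (ATP synthase) uses the proton gradient to make ATP, on which contraction of heart muscle depends. Complex II is built wholly from nuclear genes, whereas the other complexes each combine nuclear subunits with a few encoded in mitochondrial DNA.

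The hearts came from wild-type C57BL/6 mice aged 8 to 12 weeks, in 3 groups of 3 libraries called control, DOX and TPTN. DOX is the group of the doxorubicin model of dilated cardiomyopathy, made with an anthracycline that can damage heart muscle, and TPTN is the treated group. The labels do not expand the name TPTN, give no dose or day, and do not say whether TPTN mice also received doxorubicin. Whether each replicate was its own animal is not stated, and the p-values then reflect only how far these libraries spread, which may be technical.

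Values are FPKM, fragments per kilobase of transcript scaled to all mapped fragments of a library, as the authors deposited them, so read depth is unknown and no counting interval can be given. All 7 cardiomyocyte markers examined were present, with a summed level of 10378 to 11462 FPKM in control, 11442 to 12896 in DOX and 11801 to 12072 in TPTN. Of these, Myl2 and Tnni3 rose and Ryr2 fell in DOX against control. The 4 atrial markers summed to 2444 FPKM in DOX replicate 1 but to 289 and 196 in DOX replicates 2 and 3, 51.4 to 148 in control and 52.8 to 121 in TPTN. DOX replicate 1 therefore stood apart, and results on the members are also given without it. Of the endothelial, fibroblast, smooth muscle, macrophage, erythroid, adipocyte and skeletal muscle markers, only endothelial Kdr passed the test, higher in TPTN than in both other groups. Just 1 of 5 adipocyte and 1 of 6 skeletal muscle markers reached the mean of 0.5 FPKM needed for the test. Mitochondrial genes and 7 nuclear copies of them made up 69.3 to 70.6% of the FPKM sum in control, 62.6 to 64.5% in DOX and 66.7 to 67.5% in TPTN, and FPKM sets every other gene against that total. The part of the atrial markers in the results below was not tested. In bulk tissue, fewer cells of a type and less RNA per cell cannot be told apart.

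The subunits were among the most abundant messages of the heart. Of the 81 members that passed the minimum mean of 0.5 FPKM, 59 had a mean of at least 100 FPKM over the 9 libraries, against 283 of all 12500 tested genes. Complex I members ranged in mean level from 9.69 FPKM for Ndufa4l2 to 340 FPKM for Ndufb9, with a median of 124 FPKM. The medians were 233 FPKM in complex II, 248 in complex III, 182 in complex IV and 166 in complex V. Cox6a2, the heart and skeletal muscle form of a complex IV subunit, and Atp5a1, the alpha subunit of the F1 head of ATP synthase, were the most abundant members, at 966 and 962 FPKM. The member not tested was Cox7b2, a testis form, listed at 0 in 5 of the 9 libraries and at 0.0772 to 0.317 FPKM in the others. Replicates lay close together: the median coefficient of variation of the members was 4.02% in control, 7.04% in DOX and 6.29% in TPTN. A total of 22 of the 82 members share at least 10% of their 31-base words with transcripts of other genes, so reads may be split between copies. The share was above 25% for Atp5g2 (40.2%), Uqcrb (32.4%), Ndufs5 (26.5%) and Atp5h (25.4%), and the levels of these are uncertain.

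Promoter windows of 300 bases, from 250 bases before to 50 after the start, were found in RefSeq (GRCm38.p6) for 68 of the 82 members. They were searched on both strands for short motifs of factors known to act on respiratory genes. The NRF1 motif, in a form with a free base at its centre, was in 17 member promoters, or 25%, against 7.17% of promoters of protein-coding genes. The strict form, a palindrome that is a case of the first and stands in capitals in Ndufa11 below, was in 7.35% against 1.47%. The ETS-family motif CCGGAAG was in 25% against 12.9%, and the YY1 motif AAGATGGCG in 10.3% against 2.14%. The estrogen-related receptor motif AAGGTCA was in 11.8% against 4.73%, and its longer form TCAAGGTCA in 2.94% against 0.377%. Any of these motifs stood in 11 of 15 complex V promoters, 16 of 32 in complex I, 3 of 3 in complex II, 3 of 5 in complex III and 3 of 13 in complex IV, against 23.9% of protein-coding promoters. The complex IV share of 23.1% was near that background. The promoters of Ndufa11, Atp5o and Atp5e are shown because all are members that passed the test in DOX against control and hold a motif, given in capitals. Ndufa11 carries the strict NRF1 motif and Atp5o the looser one. Atp5e carries an ETS-family and a short estrogen-related receptor motif, both on the opposite strand. Each is written 5′ to 3′ on the strand of its gene.
Ndufa11, chr17:56717512-56717811, plus strand: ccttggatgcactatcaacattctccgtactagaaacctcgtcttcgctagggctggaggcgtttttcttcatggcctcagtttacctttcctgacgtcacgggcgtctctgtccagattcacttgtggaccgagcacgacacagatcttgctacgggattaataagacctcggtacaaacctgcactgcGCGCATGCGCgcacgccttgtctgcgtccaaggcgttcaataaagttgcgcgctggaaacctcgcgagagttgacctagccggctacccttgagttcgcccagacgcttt
Atp5o, chr16:91931581-91931880, minus strand: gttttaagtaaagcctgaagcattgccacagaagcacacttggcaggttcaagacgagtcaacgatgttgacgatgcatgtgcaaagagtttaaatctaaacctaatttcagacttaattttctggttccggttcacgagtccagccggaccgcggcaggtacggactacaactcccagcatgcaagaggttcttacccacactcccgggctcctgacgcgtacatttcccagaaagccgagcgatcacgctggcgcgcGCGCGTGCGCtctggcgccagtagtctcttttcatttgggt
Atp5e, chr2:174464052-174464351, minus strand: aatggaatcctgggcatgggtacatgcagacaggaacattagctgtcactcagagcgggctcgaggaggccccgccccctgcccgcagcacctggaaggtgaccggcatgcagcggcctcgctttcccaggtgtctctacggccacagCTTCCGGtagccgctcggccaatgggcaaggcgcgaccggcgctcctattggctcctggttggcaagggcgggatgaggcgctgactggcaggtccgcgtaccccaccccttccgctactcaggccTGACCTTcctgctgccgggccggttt
A match describes letters in a window and not a bound site. The promoter windows of Ndufb8, Ndufa7, Ndufa3, Ndufb10 and Uqcr10, which also passed the test in DOX against control, held none of these motifs.

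DOX hearts were compared with control hearts to see what the doxorubicin model changed. On the deposited scale, respiratory subunit transcripts were modestly higher in DOX: 77 of the 81 tested members had a positive log2 difference, and their median was 0.19, against 0.04 over all tested genes. That median kept its sign under 4 other scalings. It turned to -0.05 when the libraries were scaled without mitochondrial transcripts and a trend on transcript length was removed as well. On that joint scale the median over all tested genes was -0.07, below that of the members but above those of complexes III and IV. A total of 10 members rose at an adjusted p under 0.05 and 0 fell in limma's moderated test (Benjamini-Hochberg). They were Ndufb8, Ndufa7, Ndufa11, Ndufb10, Ndufb9 and Ndufa3 of complex I, Uqcr10 of complex III, Cox6a2 of complex IV, and Atp5o and Atp5e of complex V. Over all tested genes, 2.23% rose and 0.4% fell. The libraries of the groups did not overlap for 49 members, all higher in DOX, where 17.7% of all tested genes were higher and 5.1% lower without overlap. An unadjusted p under 0.05 was reached by 50 members and by 18% of all tested genes, and 62.8% of all tested genes had a positive sign and 37.2% a negative one. The members with a negative difference were Ndufs1, Sdha, Uqcrfs1 and Cox8a, and none of these passed the test.
The count of 10 rested on few libraries. It fell to 0 without control replicate 2, control replicate 3, DOX replicate 2 or DOX replicate 3, and in the same fits the genes that rose over the whole table fell from 279 to 2, 4, 5 and 74, so this loss was not particular to the members. The count was 6 without control replicate 1, where 1.38% of all tested genes rose. It was 13 without DOX replicate 1, the library with the high atrial markers, where 2.06% rose. The median difference stayed between 0.15 and 0.26 across these fits and those without each TPTN library.

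**Figure D1:**
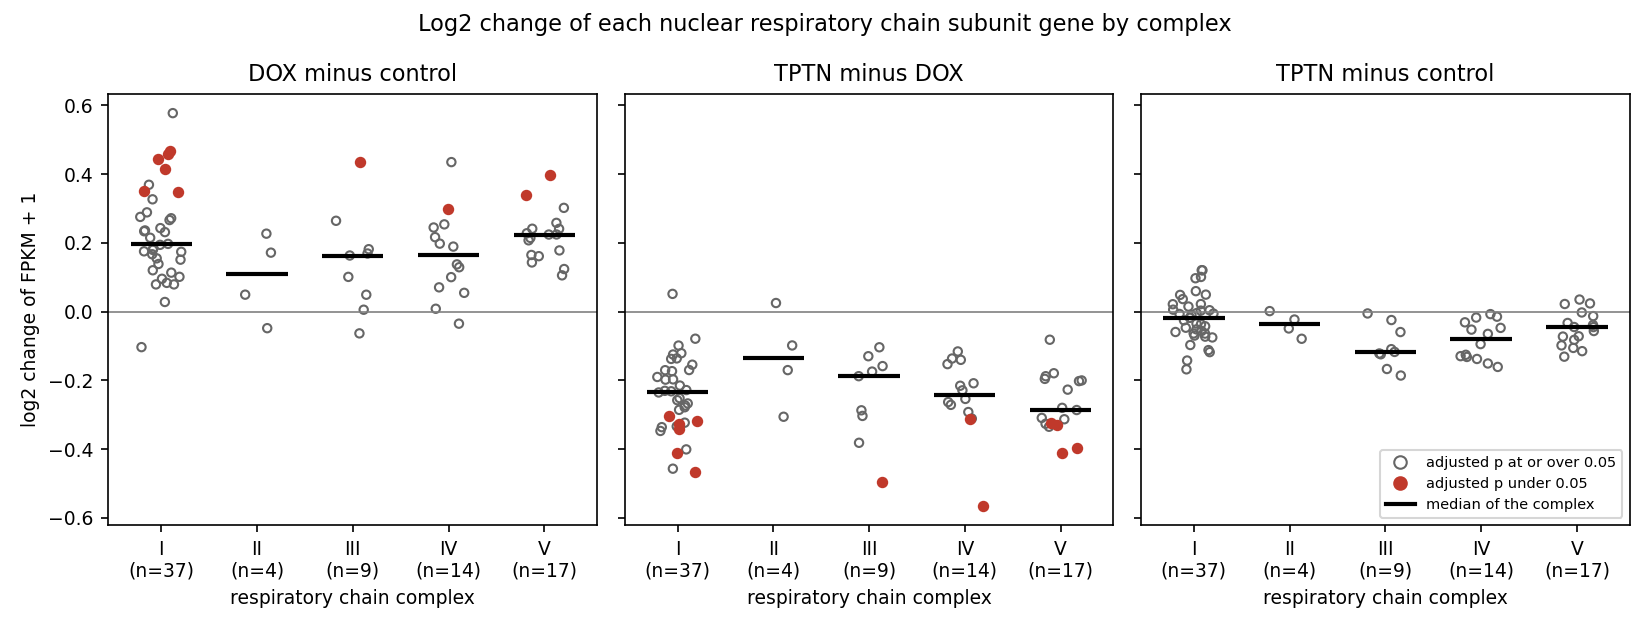
Log2 difference of each tested member (points, 81 genes) by complex in each of the 3 comparisons, on log2(FPKM + 1), with filled points for members past the threshold and bars for the median of a complex. Most members lie above 0 in the first panel and below 0 in the second, with medians of 0.19 and -0.24 on the deposited scale. These turn to -0.05 and 0.00 once scaling without mitochondrial transcripts is joined with removal of the length trend. The medians over all tested genes are then -0.07 and 0.09.

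TPTN hearts were compared with DOX hearts to ask what set treated animals apart from model animals. Subunit transcripts were lower in TPTN: 79 of the 81 tested members had a negative difference, and the median was -0.24, against -0.01 over all tested genes. That median too kept its sign under 4 other scalings. It came to 0.00 when scaling without mitochondrial transcripts was joined with removal of the length trend. The median over all tested genes was then 0.09, above that of the members. A total of 13 members fell and 0 rose in limma's test, where 2.46% of all tested genes fell and 0.792% rose. They were Ndufa7, Ndufb8, Ndufb9, Ndufb11, Ndufb10 and Ndufa3 of complex I, Uqcr10 of complex III, Cox6a2 and Cox6b2 of complex IV, and Atp5e, Atp5o, Atp5d and Atp5c1 of complex V. For 56 members every TPTN library lay below every DOX library, as it did for 14.1% of all tested genes, and 10.4% lay above without overlap. An unadjusted p under 0.05 was reached by 61 members and by 20.6% of all tested genes, of which 51.9% had a negative sign and 48.1% a positive one. Ndufs1 and Sdha had the positive differences, of 0.05 and 0.03, and neither passed the test.
Both comparisons use the same DOX libraries, so they are not independent of each other. Without DOX replicate 1, 28 members fell, as did 2.45% of all tested genes. The count was 0 without DOX replicate 2, TPTN replicate 1 or TPTN replicate 3, where the genes that fell over the whole table went from 308 to 52, 31 and 36. It was 1 without DOX replicate 3 or TPTN replicate 2, with 48 and 72 genes over the whole table, so these losses too were table-wide. It was 6, 9 and 16 without control replicates 3, 1 and 2, which enter only through the shared spread, with 1.23, 2.28 and 2.64% of all tested genes.

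TPTN hearts were compared with control hearts to see whether the treated group differed from the normal group. No member passed the test in either direction in limma, where 0.336% of all tested genes rose and 0.384% fell, and 2 members had an unadjusted p under 0.05, as did 13.1% of all tested genes. The median difference was -0.05, against 0.04 over all tested genes, and 63 of 81 members had a negative sign, against 37.6% of all tested genes, of which 62.4% were positive. The sign of the median was negative under each of the other 5 scalings as well. Every TPTN library was below every control library for Uqcrb, Cox7b and Cox6b2, and 6.03% of all tested genes were lower and 15.2% higher in this way. Cox7b, a small complex IV subunit, was at 359, 336 and 354 FPKM in the control hearts, 348, 365 and 378 in DOX hearts and 309, 336 and 295 in TPTN. The highest TPTN and the lowest control library were nearly equal. Its difference of -0.16 between TPTN and control had an adjusted p of 0.333 in limma. Uqcrfs1, Ndufb2, Atp5mpl and Sdhb had the smallest p of complexes III, I, V and II, with differences of -0.17, -0.17, -0.11 and -0.08 and limma adjusted p of 0.375, 0.419, 0.536 and 0.727.

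Complex I held 6 of the 10 members that rose in DOX, and all 6 were accessory subunits, which surround the catalytic core. Of the 28 accessory members 6 rose, with a median of 0.20. Of the 7 core members, which carry the electron path from NADH to ubiquinone, 0 passed the test and 5 had an unadjusted p under 0.05. Their median was 0.23. By comparison, 2.23% of all tested genes rose and 18% had such a p. The difference between core and accessory members was not tested. Ndufb8, a membrane-arm accessory subunit (ENSMUSG00000025204, GRCm38 chr19:44548572-44555440), was at 113, 104 and 116 FPKM in the control hearts, 139, 162 and 157 in DOX hearts and 107, 117 and 120 in TPTN. All 3 DOX libraries were above all others, and control and TPTN overlapped. Its level was 1.38-fold higher in DOX than in control, a log2 difference of 0.46 (SE 0.08, limma adjusted p 0.0200), and it fell by 0.41 from DOX to TPTN (SE 0.08, limma adjusted p 0.0254).
Ndufa7, an accessory subunit of the matrix arm (ENSMUSG00000041881, chr17:33824572-33838317), was at 46.0, 46.3 and 47.0 FPKM in the control hearts, 58.6, 66.3 and 69.5 in DOX hearts and 42.1, 49.9 and 48.0 in TPTN. The DOX libraries again stood above all others. The log2 difference was 0.47 in DOX against control and -0.47 in TPTN against DOX (SE 0.08 in each), with limma adjusted p of 0.0206 and 0.0236. Ndufa11, a membrane-arm subunit whose promoter is shown above, was at 147, 130 and 146 FPKM in the control hearts, 177, 202 and 197 in DOX hearts and 143, 161 and 155 in TPTN. It rose by 0.44 in DOX (limma adjusted p 0.0219), and its difference of -0.32 between TPTN and DOX missed the threshold (limma adjusted p 0.0526). DOX libraries did not overlap with either other group for this gene.
Ndufb10, a membrane-arm accessory subunit, was at 268, 246 and 271 FPKM in the control hearts, 319, 364 and 365 in DOX hearts and 267, 278 and 296 in TPTN. It differed by 0.41 between DOX and control and by -0.32 between TPTN and DOX, at limma adjusted p of 0.0233 and 0.0457. Ndufb9, the most abundant complex I member and also part of the membrane arm, was at 319, 295 and 312 FPKM in the control hearts, 370, 409 and 401 in DOX hearts and 302, 327 and 328 in TPTN. For both genes the lowest DOX library lay above the highest library of the other groups. Ndufb9 differed by 0.35 and -0.30 in the same comparisons (limma adjusted p 0.0261 and 0.0354). The core subunit Ndufs1, which holds iron-sulfur clusters of the matrix arm, was at 56.9, 59.9 and 57.4 FPKM in the control hearts, 57.8, 51.5 and 52.9 in DOX hearts and 53.9, 58.1 and 56.1 in TPTN, and its groups overlapped in all 3 comparisons.
Ndufa12, singled out after its values were seen, had the largest difference of any member in DOX against control (0.58), yet did not pass the test (limma adjusted p 0.377). It was at 64.8, 46.7 and 45.9 FPKM in the control hearts, 51.5, 99.0 and 92.1 in DOX hearts and 45.1, 52.8 and 75.2 in TPTN, the widest replicate spread of the members in each group (coefficients of variation 20.4, 31.8 and 27.1%). A total of 20.2% of its 31-base words also occur in the pseudogene Ndufa12-ps, itself listed at a mean of 210 FPKM. The summed level of gene and pseudogene was 272 to 297 FPKM in control, 255 to 303 in DOX and 184 to 313 in TPTN, so the groups overlapped.

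Complex II, which also serves the citric acid cycle, held 0 members that passed limma's test in any comparison, with 2, 2 and 0 at an unadjusted p under 0.05 in DOX against control, in TPTN against DOX and in TPTN against control. Such a p was reached by 18, 20.6 and 13.1% of all tested genes. Only 2.23% of all tested genes rose in DOX against control and 2.46% fell in TPTN against DOX, so 0 of 4 lay near the background. The complex II median differences of 0.11 and -0.13 in the first 2 comparisons lay nearest to 0 of the 5 complexes. The complexes were not tested against each other. Sdha, the flavoprotein that oxidizes succinate, was at 238, 255 and 248 FPKM in the control hearts, 260, 222 and 235 in DOX hearts and 242, 236 and 251 in TPTN, with all groups overlapping. Sdhb, the iron-sulfur subunit (ENSMUSG00000009863, chr4:140961203-140979193), was at 237, 212 and 231 FPKM in the control hearts, 251, 275 and 272 in DOX hearts and 196, 229 and 220 in TPTN. All DOX libraries of Sdhb were above the others, but its differences of 0.23 and -0.31 missed the threshold (limma adjusted p 0.144 and 0.0562). Sdhc, a membrane anchor, was at 85.0, 80.1 and 84.3 FPKM in the control hearts, 92.6, 93.8 and 94.9 in DOX hearts and 79.5, 88.2 and 82.2 in TPTN. Sdhd, the other anchor, was at 236, 226 and 226 FPKM in the control hearts, 229, 234 and 250 in DOX hearts and 222, 241 and 203 in TPTN. DOX stood clear of the other groups for Sdhc but not for Sdhd, and their limma adjusted p in DOX against control were 0.164 and 0.777.

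Complex III held 1 member that rose in DOX and fell in TPTN against DOX, Uqcr10, a small membrane-spanning subunit (ENSMUSG00000059534, chr11:4701973-4704342). Uqcr10 was at 273, 239 and 255 FPKM in the control hearts, 301, 340 and 402 in DOX hearts and 239, 260 and 236 in TPTN. Its DOX libraries were spread widely but all lay above the rest. The differences were 0.44 and -0.49 (SE 0.10 in each, limma adjusted p 0.0477 and 0.0303). Uqcrfs1, the Rieske iron-sulfur protein and the most abundant member of complex III, was at 399, 369 and 375 FPKM in the control hearts, 354, 375 and 366 in DOX hearts and 327, 379 and 316 in TPTN. Its groups overlapped in all 3 comparisons, and DOX was not above control. The median over the 9 members was 0.16 in DOX against control and -0.19 in TPTN against DOX.

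In complex IV, Cox6a2 rose in DOX and fell in TPTN against DOX. Cox6a2 (ENSMUSG00000030785, chr7:128205435-128206387) was at 926, 873 and 900 FPKM in the control hearts, 1093, 1107 and 1119 in DOX hearts and 854, 899 and 919 in TPTN. The DOX libraries lay within a narrow band above all others. The level was 1.23-fold higher in DOX, a log2 difference of 0.30 (SE 0.05, limma adjusted p 0.0243), and it fell by 0.31 on the log2 scale from DOX to TPTN (SE 0.05, limma adjusted p 0.0236). Its general form Cox6a1 was at 60.3, 51.7 and 57.4 FPKM in the control hearts, 58.1, 66.7 and 60.6 in DOX hearts and 50.7, 61.5 and 56.5 in TPTN, with overlapping groups. The ratio of Cox6a2 to Cox6a1 ranged from 15.4 to 16.9 in control, 16.6 to 18.8 in DOX and 14.6 to 16.9 in TPTN, and these ranges overlapped.
The muscle form Cox7a1 was at 689, 638 and 681 FPKM in the control hearts, 671, 762 and 973 in DOX hearts and 638, 676 and 628 in TPTN. The general form Cox7a2 was at 167, 158 and 167 FPKM in the control hearts, 192, 206 and 189 in DOX hearts and 146, 171 and 170 in TPTN. DOX overlapped with control for Cox7a1, with 1 high DOX library, but stood clear for Cox7a2, and neither passed the test (limma adjusted p 0.288 and 0.0977). Cox8b, another muscle form, was at 533, 481 and 523 FPKM in the control hearts, 450, 545 and 728 in DOX hearts and 488, 516 and 410 in TPTN. Cox8a, its general form, was at 86.6, 86.5 and 82.2 FPKM in the control hearts, 76.1, 87.6 and 85.9 in DOX hearts and 74.5, 85.5 and 70.4 in TPTN. DOX replicate 3 was the highest library for both Cox7a1 and Cox8b. The ratio of muscle to general form was 3.49 to 5.15 for Cox7a1 over Cox7a2 and 5.56 to 8.48 for Cox8b over Cox8a across the 9 libraries, with overlapping groups in every comparison.
Cox6b2, a testis form, was barely present, at 0.997, 1.19 and 1.23 FPKM in the control hearts, 2.51, 1.78 and 1.48 in DOX hearts and 0.982, 0.984 and 0.9 in TPTN. All DOX libraries were above all control libraries, and all TPTN libraries were below all control libraries. It fell by 0.56 from DOX to TPTN (SE 0.11, limma adjusted p 0.0311), and its difference of 0.44 in DOX against control missed the threshold (limma adjusted p 0.0755). The general form Cox6b1 was at 402, 369 and 394 FPKM in the control hearts, 404, 457 and 478 in DOX hearts and 383, 399 and 359 in TPTN.

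**Figure D2:**
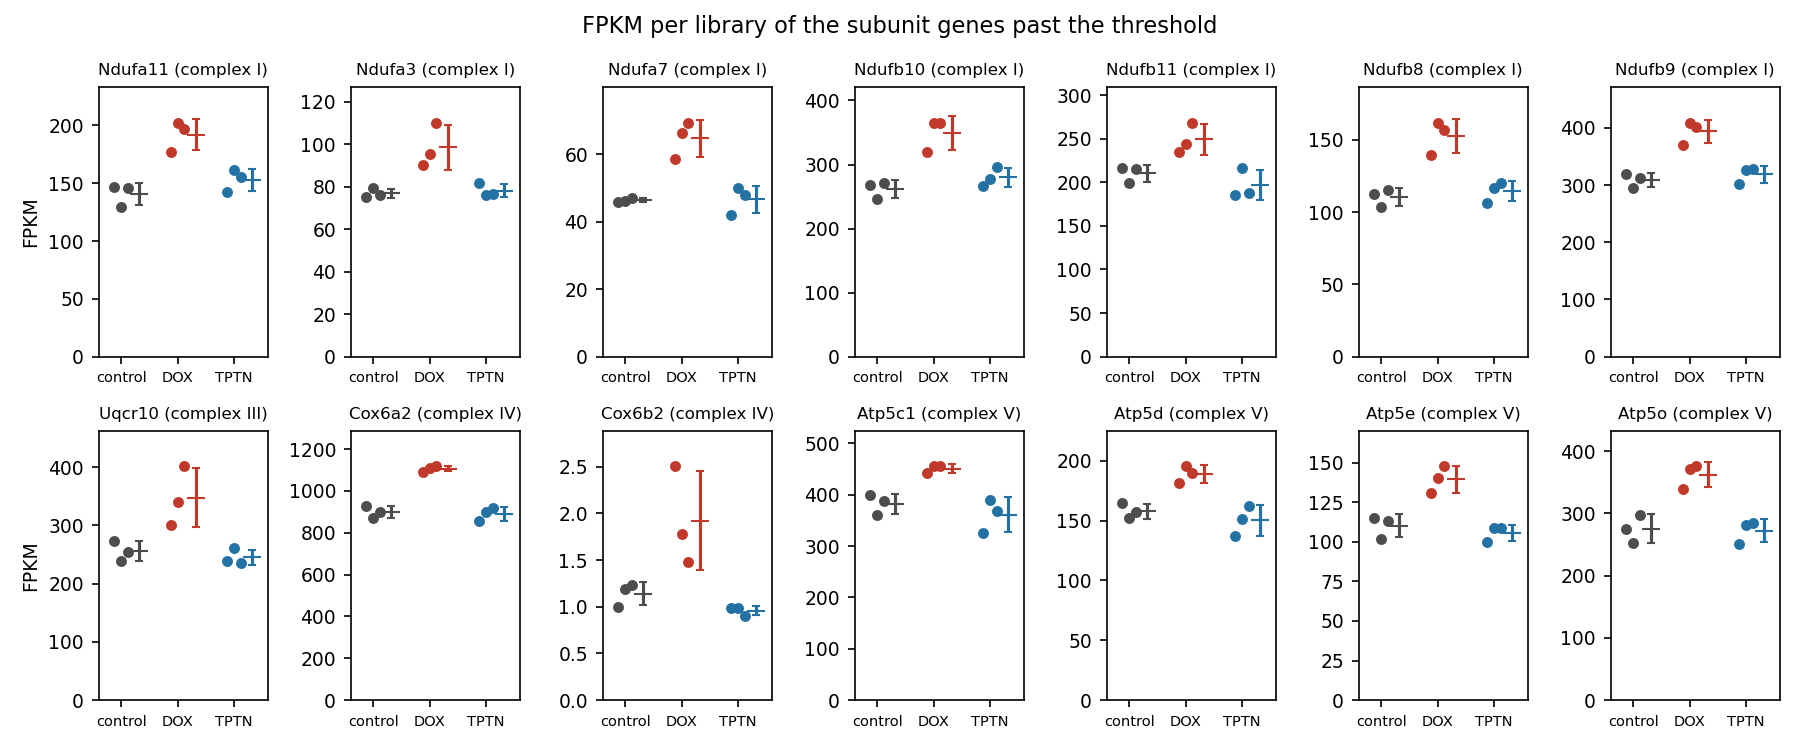
FPKM in each of the 9 libraries for the members past the threshold in either comparison with DOX, by group, on axes starting at 0. Points are libraries and the cross with error bars beside them is the mean with its SD (n = 3). For Ndufb8 the DOX libraries sit between 139 and 162 FPKM, above the 104 to 120 FPKM of the other groups, and for Cox6a2 between 1093 and 1119 FPKM against 854 to 926.

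Complex V had the largest median differences of the 5 complexes on the deposited scale, 0.22 in DOX against control and -0.29 in TPTN against DOX, with 2 members that rose and 4 that fell. Every one of its 17 members was positive in the first comparison and negative in the second. For all tested genes, 2.23% rose in the first and 2.46% fell in the second, and 62.8 and 51.9% had those signs. Atp5o, the subunit that ties the peripheral stalk to the catalytic head (ENSMUSG00000022956, chr16:91925214-91931687), was at 275, 252 and 298 FPKM in the control hearts, 340, 371 and 376 in DOX hearts and 251, 281 and 285 in TPTN. The DOX libraries were above all others. The differences were 0.40 and -0.41 (SE 0.08 in each, limma adjusted p 0.0327 and 0.0287). Atp5e, the epsilon subunit of the rotating central stalk (ENSMUSG00000016252, chr2:174461072-174464105), was at 115, 102 and 113 FPKM in the control hearts, 131, 140 and 148 in DOX hearts and 99.8, 109 and 109 in TPTN. It showed the same order of groups, with differences of 0.34 and -0.40 (SE 0.07 in each, limma adjusted p 0.0389 and 0.0245). Its partners in the central stalk, Atp5d and Atp5c1, fell by 0.33 and 0.32 in TPTN against DOX (limma adjusted p 0.0370 and 0.0452) and had differences of 0.26 and 0.24 in DOX against control that missed the threshold (0.0915 and 0.117).
Atp5a1, the alpha subunit, was at 928, 923 and 949 FPKM in the control hearts, 1015, 988 and 1010 in DOX hearts and 906, 969 and 973 in TPTN. DOX was above both other groups without overlap, but its differences of 0.11 and -0.08 were the smallest in complex V and missed the threshold (limma adjusted p 0.337 and 0.419). The membrane ring of c subunits is made from 3 genes with the same mature protein. Atp5g3 gave 61.0 to 64.1% of their summed FPKM, Atp5g1 23.7 to 25.8% and Atp5g2 11.7 to 13.2% across the 9 libraries. Between DOX and control the shares overlapped for all 3 genes, and their differences lay close together, at 0.21 for Atp5g3, 0.22 for Atp5g1 and 0.24 for Atp5g2, none past the threshold. The share of Atp5g2 was lower in TPTN (11.7 to 12.57%) than in DOX (12.61 to 13.2%) without overlap. Atp5g2 shares 37.5% of its 31-base words with a single other gene, so its share is uncertain.

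Per library, the summed FPKM of the 37 complex I members was 4845, 4534 and 4791 in the control hearts, 5149, 5699 and 5914 in DOX hearts and 4497, 4845 and 4675 in TPTN. The sum of the 17 complex V members was 4368, 4121 and 4372 in the control hearts, 4789, 4932 and 5058 in DOX hearts and 3970, 4379 and 4295 in TPTN. DOX was clear of both other groups in these sums, as it was for complexes II and IV. As a share of the FPKM outside mitochondrial genes and their copies, DOX overlapped with control for complexes I, III, IV and V. Complex II was lower in DOX (0.448 to 0.467%) than in control (0.477 to 0.486%) without overlap. Its share in TPTN (0.450 to 0.468%) was also below control and overlapped with DOX. The shares of complexes III, IV and V were lower in TPTN than in control without overlap, and that of complex I overlapped. In summed FPKM of complex III, DOX (2213 to 2561 FPKM) overlapped with control (2090 to 2265) and not with TPTN (1945 to 2173). Within DOX, replicate 1 had the lowest sums of complexes I, III, IV and V. The median member stood 0.04 above its own mean in that library on the log2 scale, against 0.18 and 0.20 in replicates 2 and 3.

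The subunits encoded in mitochondrial DNA went the other way in DOX on the deposited scale. Of the 13 genes, 5 fell and 0 rose in DOX against control in limma's test, with a median of -0.23, and 11 were lower without overlap. Over all tested genes 0.4% fell, 2.23% rose and 5.1% were lower without overlap. The 4 of the 13 genes with the smallest p were mt-Nd4l, mt-Co1, mt-Atp8 and mt-Nd5, which fell by 0.40, 0.36, 0.47 and 0.35 (limma adjusted p 0.0150, 0.0157, 0.0200 and 0.0200). These calls too rested on few libraries. Without control replicate 2 or control replicate 3, 0 genes of the whole table fell, and 2 fell without DOX replicate 2. No mitochondrially encoded subunit passed the test in TPTN against DOX or in TPTN against control, where the medians were 0.06 and -0.15 and 4 and 8 genes had an unadjusted p under 0.05 in limma. Such a p was reached by 20.6 and 13.1% of all tested genes. The nuclear sum of complex I was 0.0533 ± 0.0034 of its mitochondrially encoded sum in control, 0.0730 ± 0.0056 in DOX and 0.0579 ± 0.0009 in TPTN (SD, n = 3). The same ratio for complex V was 0.118 ± 0.007 in control, 0.179 ± 0.025 in DOX and 0.139 ± 0.009 in TPTN (SD, n = 3). The ratio is not altered by a scaling with 1 factor per library, and it was not computed under quantile normalization or with the length trend removed. It was 1.37, 1.22, 1.33 and 1.52 times as high in DOX as in control for complexes I, III, IV and V, with no overlap of libraries. From DOX to TPTN it changed by factors of 0.792, 0.842, 0.786 and 0.772 in the same order, again with no overlap. In TPTN it stood above control without overlap for complexes I, IV and V (factors of 1.08, 1.05 and 1.18) and overlapped for complex III. These ratios were described and not tested, and they show unequal change of the 2 gene sets and not which of them moved. The mitochondrially encoded sums leave out the 7 nuclear copies, and reads may be split between the copies and the mitochondrial genes. In control, mitochondrial genes alone made up 49.8 to 50.9% of the FPKM sum, against 69.3 to 70.6% with the copies. How far this shifts the sums and ratios was not tested.

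**Figure D3:**
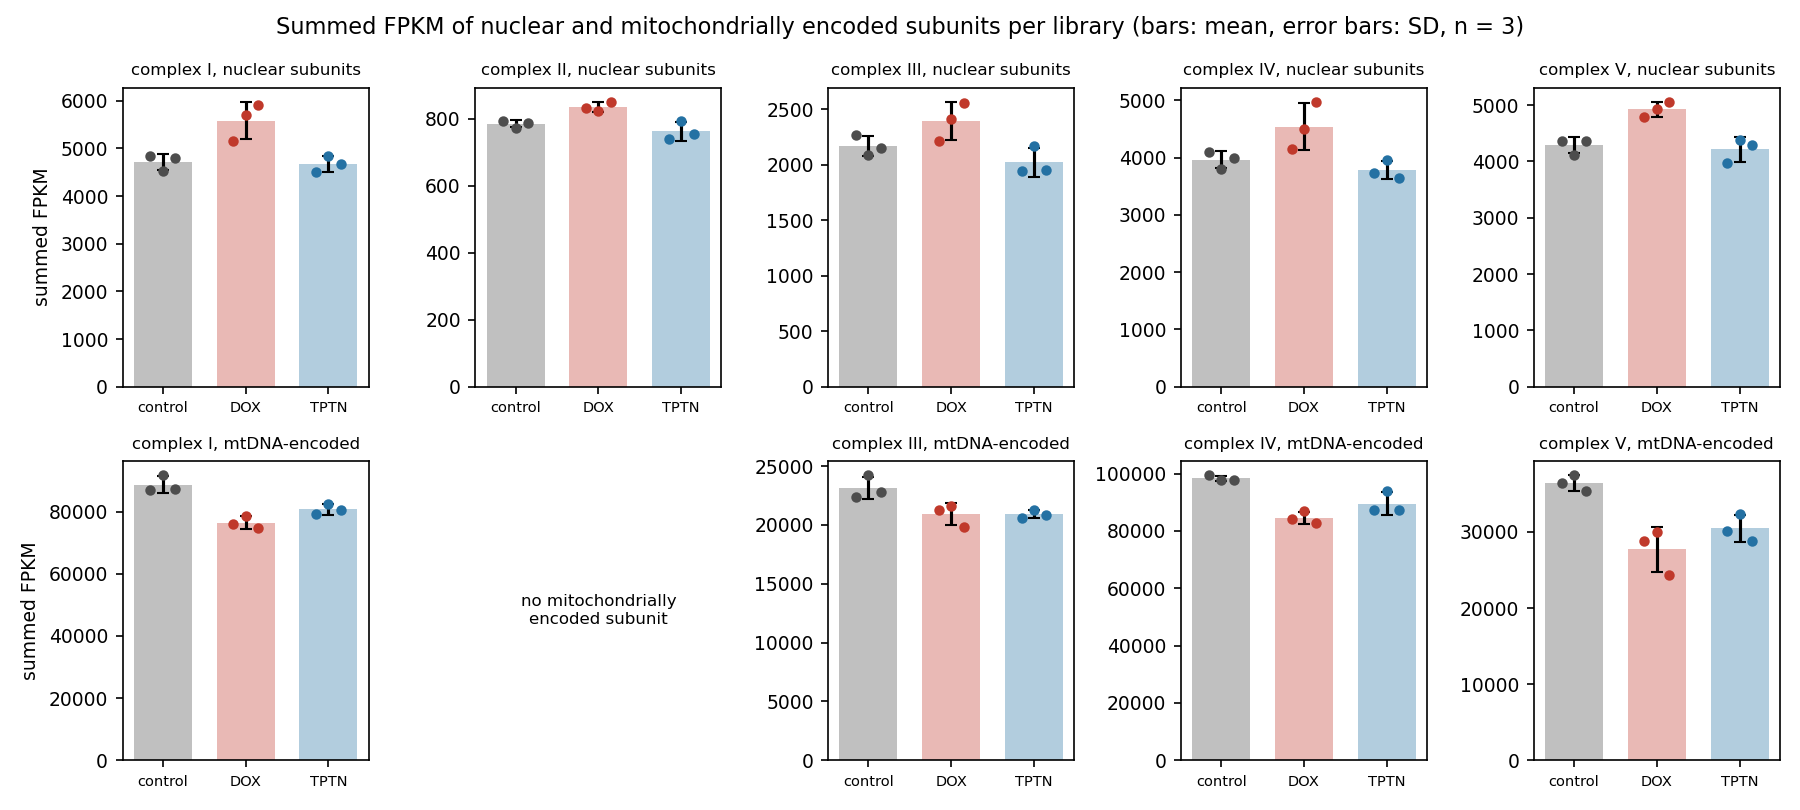
Summed FPKM of the nuclear subunits (upper row) and of the mitochondrially encoded subunits (lower row) of each complex in control, DOX and TPTN. Bars are means, error bars SD (n = 3) and points libraries, all axes starting at 0. For complex I the nuclear sum is higher in DOX than in control by a factor of 1.18 and the mitochondrially encoded sum lower by a factor of 0.863.

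Because mitochondrial transcripts are most of the FPKM sum, the members were also set against the sum of all other genes. Their share of it was 9.82, 9.62 and 9.88% in the control hearts, 9.62, 9.99 and 10.4% in DOX hearts and 9.19, 9.51 and 9.12% in TPTN. Here DOX overlapped with control, whereas every TPTN library lay below every library of both other groups. Scaling to that sum moved the median of all tested genes from 0.04 to -0.07 in DOX against control, and the median of the members to 0.03, which is 0.10 above all genes. Ndufb8, Ndufa7 and Ndufa11 were past the threshold in limma on this scale and the medians of complexes II, III and IV were at or below 0 (-0.05, -0.002 and -0.002). Of all tested genes, 0.488% rose and 1.67% fell on this scale in DOX against control. In TPTN against DOX on the same scale the members' median was -0.10, or -0.19 relative to all genes, and Ndufa7, Ndufb8, Uqcr10, Cox6a2, Cox6b2, Atp5e and Atp5o fell. Complex II was then at -0.001. The whole table tipped the other way there, with 4.34% of all tested genes higher and 1.03% lower. Median-ratio scaling gave 0 members that rose in DOX against control, with a median of 0.12, and 8 that fell in TPTN against DOX, with a median of -0.22. The same scaling had 0.88% of all tested genes rise in the first comparison and 2.24% fall in the second. With quantile normalization 1 member, Ndufa11, rose in DOX, and 3 members, Cox6a2, Cox6b2 and Ndufa7, fell in TPTN against DOX. The matching shares of all tested genes were 0.608 and 1.3%. The medians of complexes II, III and IV were then -0.04, -0.01 and -0.01 in DOX against control, and that of complex II was 0.03 in TPTN against DOX.
Transcript length moved with these differences as well. The members are short, with a median transcript length of 763 bases against 1721.5 over all tested genes. Across all tested genes the median difference in DOX against control was 0.14 below 600 bases, 0.13 from 600 to 1000, 0.05 from 1000 to 2000 and 0.01 from 2000 bases up. The members of the first 3 length classes had medians of 0.19, 0.22 and 0.16, and the 2 members from 2000 bases up had 0.30. In TPTN against DOX all genes of the first 3 classes had medians of -0.13, -0.13 and -0.02 and the members -0.26, -0.26 and -0.19. From 2000 bases up the median was 0.04 for all genes and -0.29 for the 2 members. After a trend on length over all genes was removed, the members' median was 0.11 in DOX against control, with Ndufb8 alone past the threshold. In TPTN against DOX the members' median was -0.12, with 0 past the threshold. Of all tested genes, 0.736% rose in the first comparison and 0.752% fell in the second after this removal. With that trend removed on the scale without mitochondrial transcripts, 0 members rose and 2, Cox8a and Uqcrb, fell in DOX against control, and 0 passed the test in TPTN against DOX. Over all tested genes on that scale 0.184% rose and 1.65% fell in DOX against control, and 3.02% rose and 0.368% fell in TPTN against DOX, so the members' counts in DOX against control lay near the background. The members' medians were then -0.05 and 0.00, against -0.07 and 0.09 over all genes. In DOX against control the medians of complexes III and IV (-0.093 and -0.106) lay below that of all genes, and those of the other complexes above it. Why short transcripts differed between the groups was not tested.

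**Figure D4:**
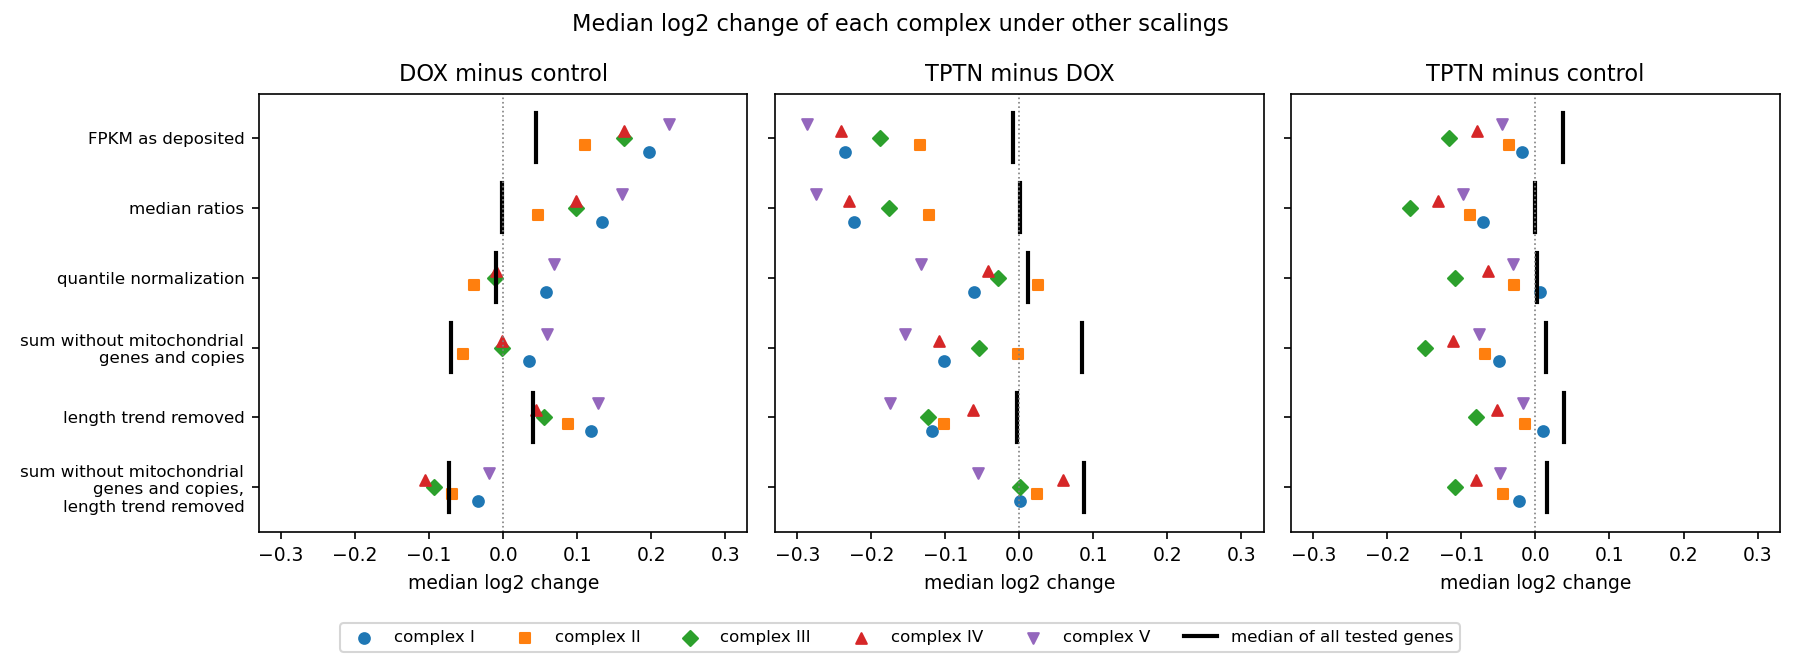
Median log2 difference of the tested members of each complex (symbols) and of all tested genes (black bars) in the 3 comparisons, with the deposited FPKM and 5 other scalings in rows. The members' median in DOX against control goes from 0.19 as deposited to 0.03 without mitochondrial transcripts and to -0.05 with the length trend removed too. On that last scale the medians of all 5 complexes are below 0, and the median of all tested genes is -0.074. Complexes III and IV (-0.093 and -0.106) lie below it, and complexes I, II and V (-0.034, -0.069 and -0.019) above.

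Among related genes outside the name pattern, none of 8 companion genes in the table passed limma's test in any comparison, and 2, 2 and 0 had an unadjusted p under 0.05. Over all tested genes 18, 20.6 and 13.1% had such a p. Cox4i1, the general form of a complex IV subunit, was at 619, 561 and 611 FPKM in the control hearts, 641, 690 and 762 in DOX hearts and 533, 596 and 560 in TPTN. Its DOX libraries were above all others, with differences of 0.22 and -0.31 (limma adjusted p 0.161 and 0.0592). Cox4i2, its lung form, ranged from 5.37 to 7.88 FPKM. Cycs, cytochrome c itself, and Ndufab1, the mitochondrial acyl carrier protein, had differences of 0.06 and -0.01 in DOX against control. Atpif1, the inhibitor of ATP synthase, named after its values were seen, was at 39.8, 34.4 and 45.5 FPKM in the control hearts, 45.7, 62.8 and 65.6 in DOX hearts and 40.9, 44.8 and 37.3 in TPTN. DOX lay above both other groups, by little over the highest control library. Its differences of 0.52 and -0.48 were the largest of the companion genes and missed the threshold (limma adjusted p 0.096 and 0.104).
The assembly factors, which help build the complexes but are not part of them, had smaller median differences than the subunits on the deposited scale. Their median was 0.02 in DOX against control and -0.05 in TPTN against DOX over 50 tested genes. In DOX against control 1 of the 50 rose and 0 fell, near the 2.23 and 0.4% of all tested genes. The factor that rose was Fmc1, which serves complex V. It was at 34.6, 35.7 and 37.2 FPKM in the control hearts, 46.5, 49.1 and 46.7 in DOX hearts and 32.8, 36.2 and 34.4 in TPTN, with DOX clear of both other groups. Its differences were 0.40 and -0.45 (limma adjusted p 0.0170 and 0.0118). In TPTN against DOX the complex IV factor Coa4 and the complex III factor Uqcc3 also fell, by 0.37 and 0.41 (limma adjusted p 0.0239 and 0.0452), and the complex IV factor Coa5 rose by 0.33 (limma adjusted p 0.0370). Thus 3 of the 50 fell and 1 rose, where 2.46% of all tested genes fell and 0.792% rose. The difference between assembly factors and subunits was not tested, and these sets were not matched for level or transcript length.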

How the data were processed

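Polyadenylated RNA of 9 heart libraries was sequenced as strand-marked pairs, per the labels' protocols. The authors deposited FPKM per gene and library. The submitters' processing notes name cutadapt 1.9, HISAT2 2.0.4, StringTie 1.3.4d, DESeq2, edgeR and the genome GRCm38, without saying which step each did. The deposited table also holds a p-value and a q-value per gene, whose comparison its header does not name, and these were not used. Read counts were not used here, so no count model was fitted and the depth behind each value is unknown. FPKM is relative to each library's total, so a change in abundant transcripts shifts all others, and it divides by length.

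The 12500 genes whose mean reached 0.5 FPKM were tested as log2(FPKM + 1), which understates changes of low genes, in a limma 3.58.1 model, run in R 4.3.3 after reading with data.table version 1.17.8, with a mean per group, a mean-variance trend and robust moderation, on 6 residual degrees of freedom. Tests were two-sided, and a gene passed at a Benjamini-Hochberg adjusted p under 0.05 over all tested genes, with no minimum fold. Fits were tested on simulated data with independent noise. The changes put in were larger than the median change of the members, so that test does not cover differences of this size. Members that passed are named, with values in every library for up to 6 per direction and comparison by p, for the smallest p and the most abundant gene of a complex, for isoform pairs and for complex II. Members, lists and rules were chosen with earlier results of these data known. Positions are those of GENCODE M21 on GRCm38, in which all 82 members were found, and promoters those of RefSeq. Python 3.11.15 with pandas 2.3.3, numpy 2.4.6, scipy 1.17.1 and matplotlib 3.10.9 was used for summaries and plots. Alternatives were other fits, filters, scalings and pseudocounts, and leaving out each library.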

Additional observations from a re-analysis of the deposited data

How the results depend on the processing

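In DOX against control 10 members rose on the deposited scale. The count was 6 with only the groups compared, 1 with quantile normalization, 3 with mitochondrial genes and their nuclear copies left out of the scaling, 1 with the length trend removed, and 0 with no filter on low values or with median-ratio scaling. Over all tested genes 2.23% rose on the deposited scale and 1.19, 0.608, 0.488, 0.736, 0.00684 and 0.88% in the same order. In TPTN against DOX 13 members fell, and the count was 7 with only the groups compared, 0 with no filter, 21 with a minimum mean of 1 FPKM, 8 with median ratios, 3 with quantile normalization, 7 without mitochondrial genes and copies, and 0 with the length trend removed. Over all tested genes 2.46% fell on the deposited scale and 1.75, 0.00684, 3.44, 2.24, 1.3, 1.03 and 0.752% in the same order. The members' median difference of 0.19 in DOX against control was 0.0495, 0.0293 and 0.108 with quantile normalization, scaling without mitochondrial genes, and the length trend removed, and that of -0.24 in TPTN against DOX was -0.0675, -0.102 and -0.119. Over all tested genes these medians were -0.0103, -0.0707 and 0.0405 in DOX against control. In TPTN against DOX they were 0.0116, 0.085 and -0.0035. Without each library in turn the members that rose ranged from 0 to 13 and those that fell from 0 to 28, the medians ranged from 0.15 to 0.26 and from -0.30 to -0.20, and TPTN against control gave 0 calls with medians of -0.08 to -0.02. Both other alternatives were chosen after seeing the data. Joining the scaling without mitochondrial genes with the length correction left 0 members that rose and 2 that fell in DOX against control. The members' median was then -0.0456, of reversed sign, against -0.0738 over all tested genes. In TPTN against DOX 0 members fell, and their median was 0.0021 against 0.0879 over all tested genes. On that scale 1.65 and 0.368% of all tested genes fell. Leaving out control replicate 3 and TPTN replicate 1 together gave 0 calls in both, with 5 genes of the whole table higher and 5 lower in the respective comparison, and the difference of Sdhb between TPTN and control became 0.0013 from -0.08. No member that passed the test on the deposited scale changed sign under any alternative, though Uqcrb, which fell in DOX under the joint scaling, had a difference of 0.0056 as deposited. No sign was seen that the replicate numbers pair the libraries. Over 9 same-number pairs the correlation of deviations was -0.261 to 0.023, and a library was closest to one of its own number in 2 of 18 cases. With 3 libraries per group this cannot exclude a pairing. With the replicate number as a block, 5 members rose in DOX against control and 4 fell in TPTN against DOX, where 1.13% of all tested genes rose and 0.976% fell. The cause of these changes was not tested. FPKM carries no counts, so what depth limits cannot be given.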
